A study of Mus musculus with 10 samples.

Results

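The genes of cholesterol and fatty acid synthesis were followed through 5 groups of mouse cells, as a list of 30 genes matched by name among the 25814 genes of each table. All 30 were found in each of the 10 libraries, and all 30 passed the filter on low counts in every comparison. The list holds 7 genes of the mevalonate arm (Acat2, Hmgcs1, Mvk, Pmvk, Mvd, Idi1, Fdps), 11 genes of the sterol arm (Fdft1, Sqle, Lss, Cyp51, Tm7sf2, Msmo1, Nsdhl, Hsd17b7, Ebp, Sc5d, Dhcr7), 5 regulators (Srebf1, Srebf2, Scap, Insig1, Insig2), the sterol carrier Stard4, and 6 genes of the fatty acid arm (Acly, Acaca, Fasn, Elovl6, Scd1, Scd2).

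The study placed primary keratinocytes from the tails of adult C57/B6 mice together with splenic CD8+ T cells of the same strain and asked how each cell type alters the transcripts of the other. Poly(A) RNA was sequenced from 2 libraries per group. Keratinocytes were grown in serum-free keratinocyte medium and were either kept alone or held with pre-activated T cells, which were washed off before lysis. The methods put every co-culture in keratinocyte medium mixed with X-VIVO medium and name no such mix for keratinocytes alone. Medium and partner cell may therefore have changed together in the keratinocyte comparison, and cannot be told apart there. T cells were enriched with CD8 microbeads, activated for 1 d with antibodies to CD3 and CD28 in X-VIVO 15 medium, and taken as activated T cells, or were kept for 1 further day in keratinocyte medium mixed with X-VIVO medium, without keratinocytes (T cells in mixed medium) or with them (co-cultured T cells). The activated T cells had by the labels no further culture, so medium and time changed together and cannot be told apart in any comparison with them. The methods name the antibodies for the pre-activation only. Their stimulus may therefore have ended with the change of medium, and that cannot be told apart either. A figure legend of the paper places its pre-activated T cells in X-VIVO medium for 1 d. It does not say whether that day was the activation or came after it. The T-cell labels and the methods give 1 d of co-culture, the deposited design text gives 1 h. No allele, transgene or drug separated the groups, and nothing states that the libraries of a group came from separate animals or cultures, so the p-values measure the spread between these libraries, which may be technical.

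Cholesterol is built from acetyl-CoA. The mevalonate arm makes farnesyl diphosphate, and the sterol arm joins it into squalene, closes the ring and trims the product to cholesterol. The fatty acid arm turns citrate into acetyl-CoA and malonyl-CoA, builds palmitate and then elongates or desaturates it. Both arms are driven by the SREBP transcription factors (Srebf1, Srebf2), which SCAP carries from the endoplasmic reticulum to the Golgi when sterol is low, and which the INSIG proteins hold back when sterol is plentiful. T cells that enter division after activation are known to turn this programme on, and keratinocytes use it for membranes and for the lipids of the skin barrier.

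The 4 stretches of DNA printed here lie just upstream of genes of the list that were lower in T cells after the further day, and show the letters that SREBP and its partners are known to read. Hmgcs1 is shown because it held the only match to the sterol regulatory element core among the 24 genes searched, Lss because it had the largest change after the further day in mixed medium, and Insig1 and Sc5d because they carry an E-box. The windows are from RefSeq (GRCm38.p6), 5′ to 3′ on the gene's strand. They were cut before the GENCODE gene start where that start fell inside the window. They cover chr13:119690101-119690350 (plus strand) for Hmgcs1, chr10:76531355-76531587 (plus strand) for Lss, chr5:28071162-28071362 (plus strand) for Insig1 and chr9:42264301-42264550 (minus strand) for Sc5d. Capitals mark the sterol regulatory element core, the E-box and the NF-Y box on either strand.
Hmgcs1: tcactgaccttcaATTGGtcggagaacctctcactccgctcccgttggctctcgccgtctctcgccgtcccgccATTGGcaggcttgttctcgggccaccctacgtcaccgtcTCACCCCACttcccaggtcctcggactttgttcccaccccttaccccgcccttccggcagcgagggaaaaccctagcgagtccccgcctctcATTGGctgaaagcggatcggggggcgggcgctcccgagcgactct
Lss: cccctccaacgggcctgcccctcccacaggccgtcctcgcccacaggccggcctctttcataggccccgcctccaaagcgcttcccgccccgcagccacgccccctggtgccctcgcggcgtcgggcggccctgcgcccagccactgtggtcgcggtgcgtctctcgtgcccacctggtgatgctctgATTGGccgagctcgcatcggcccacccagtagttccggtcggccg
Insig1: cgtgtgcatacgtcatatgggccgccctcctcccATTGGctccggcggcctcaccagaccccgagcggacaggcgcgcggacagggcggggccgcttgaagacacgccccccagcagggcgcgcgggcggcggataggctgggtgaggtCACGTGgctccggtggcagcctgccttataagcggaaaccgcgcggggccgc
Sc5d: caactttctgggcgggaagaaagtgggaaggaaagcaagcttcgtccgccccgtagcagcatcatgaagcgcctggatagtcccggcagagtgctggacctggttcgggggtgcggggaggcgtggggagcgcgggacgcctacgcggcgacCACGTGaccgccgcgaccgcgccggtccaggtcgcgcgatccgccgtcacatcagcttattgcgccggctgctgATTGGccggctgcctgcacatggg

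Promoter windows were on hand for 24 of the 30 genes, and those of Fdps, Fdft1, Sqle, Scd1, Scd2 and Stard4 were not used here. In the 250 bases before the start, TCACNCCAC (the sterol regulatory element core, N being any base) was found on either strand in 1 of the 24 genes, Hmgcs1, against 1.22% of all 27025 genes with a window. The E-box CACGTG was found in 5 of the 24 (Hsd17b7, Sc5d, Dhcr7, Scap, Insig1), against 6.86% of all genes. The NF-Y box CCAAT was found in 19 of the 24, against 37.5% of all genes, and the Sp1 box GGGCGG in 20 of the 24, against 35.4%. Read on the other strand, the NF-Y box can share its closing G letters with the Sp1 box. A match is a description of the letters, not a binding site.

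The libraries held 12864931 to 18019609 exon reads each, of which 78.2% to 87.2% mapped to 1 place. Krt14 fitted the labels, at 7240 to 11836 RPKM (reads scaled per kilobase of exon and to the mapped reads of the library) in keratinocytes. It stood at 0.350 to 1.06 in the T-cell libraries that had not met keratinocytes. Over 10 keratinocyte markers the sums were 13849 to 18711 and 6.80 to 10.3 RPKM in the same libraries. Single markers differed: Krt15 read at most 1.08 RPKM in keratinocytes, and Itga6 read 2.74 to 5.94 in those T-cell libraries. Dsp read 581 and 459 RPKM in keratinocytes alone and at most 106 after co-culture. The co-cultured T cells held 61.6 and 16.8 RPKM of Krt14. The summed level of 10 T-cell markers was 1458 to 2995 RPKM in T cells, and in keratinocytes it was 122 and 483 alone and 158 and 870 after co-culture, with Cd8a at 1.16 RPKM or below and Cd4 at 11.4 to 84.5. T-cell libraries read 110.0 to 334 RPKM of Cd8a and 16.8 to 102 of Cd4. The activated T cells gave both ends of the Cd4 range, 16.8 in replicate 1 and 102 in replicate 2. Over 4 myeloid markers they summed to 15.0 and 67.1, against 39.3 to 53.8 in the other T-cell libraries. The part of these differences in the results was not tested. Markers of sebocytes, the lipid-making gland cells of skin, summed to at most 0.361 RPKM over 4 genes in any library. Libraries also differed in their reads from long transcripts: genes with at least 5000 bases of exon took 8.71% to 23.3% of exon reads. In these bulk libraries fewer cells of a type and less RNA per cell cannot be told apart.

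**Figure D1:**
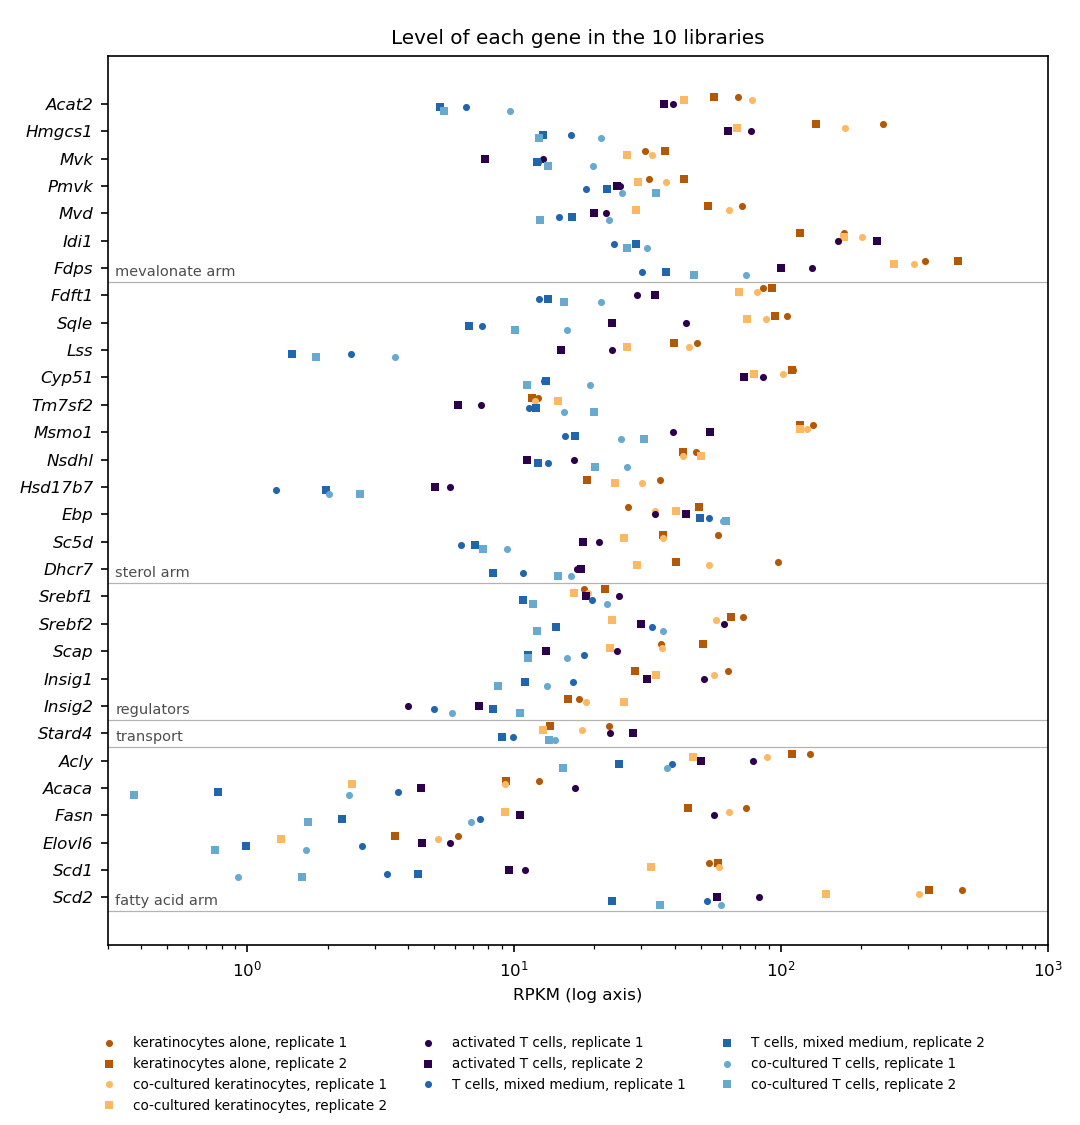
Level of each of the 30 genes in RPKM (log axis) in the 10 libraries, with circles for replicate 1 and squares for replicate 2 of each group and the genes ordered by arm. For Lss, Acat2, Hmgcs1, Idi1 and Cyp51 the 4 T-cell libraries of the further day lie apart from, and below, both activated T-cell libraries.

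Activated T cells carried much of this machinery. Idi1, the isomerase that makes the allylic building block of the pathway, was the highest of the 30 there at 164 and 229 RPKM, followed by the farnesyl diphosphate synthase Fdps at 130.4 and 99.9. These libraries differ from each other by less for the mevalonate arm (471 and 480.1 RPKM summed over 7 genes) and the sterol arm (323 and 301 over 11 genes) than for the fatty acid arm (251 and 137 over 6 genes). The genes with the longest transcripts parted them most. Fasn, which builds palmitate and has 10605 bases of exon, read 56.4 and 10.5, and Acaca, which makes malonyl-CoA and has 10127 bases, read 16.9 and 4.48.

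After the further day in mixed medium, T cells had lost most of their mevalonate-arm transcripts. The summed level of the arm was 122 and 135 RPKM, against 471 and 480.1 in activated T cells. Markers of cell types moved as well: 4 B-cell markers summed to 44.2 and 92.3 RPKM in mixed medium after 29.4 and 31.0, and 10 T-cell markers to 2995 and 2484 after 1458 and 1798. Their part in the result was not tested. Of all 30 genes, 9 fell and 0 rose in edgeR's quasi-likelihood test at an adjusted p under 0.05, where 4.22% of the 11863 genes tested fell and 2.32% rose. The median log2 fold change of the 30 was -1.27, against -0.01 over all genes tested. Both libraries lay below both activated libraries for 22 of the 30, against 32.5% of all genes.

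In the mevalonate arm 4 of 7 genes fell. Idi1 (chr13:8885501-8892451) read 23.6 and 28.7 RPKM in mixed medium, after 164 and 229 in activated T cells, a log2 fold change of -2.76 ± 0.35 (SE; edgeR adjusted p = 0.0121). Acat2, the cytosolic thiolase that opens the pathway, read 6.57 and 5.28 after 39.5 and 36.4, a change of -2.54 ± 0.37 (edgeR adjusted p = 0.0149). Hmgcs1, which makes HMG-CoA and whose upstream letters are printed above, read 16.3 and 12.8 after 77.0 and 63.1, a change of -2.13 ± 0.33 (edgeR adjusted p = 0.0164). The groups stand well apart for these 3 genes, at 4-fold or more. Fdps read 30.1 and 37.1 after 130.4 and 99.9, a change of -1.62 ± 0.33 (edgeR adjusted p = 0.0319). Only 13.1% of the exon reads of Fdps mapped to 1 place, and on those reads alone its change was -1.58 with an adjusted p of 0.0912. The 3 enzymes between HMG-CoA reduction and isomerisation gave other values: the mevalonate kinase Mvk read 12.3 and 12.2 after 12.8 and 7.76, the phosphomevalonate kinase Pmvk read 18.5 and 22.2 after 25.0 and 24.4, and the decarboxylase Mvd read 14.8 and 16.4 after 22.1 and 19.9. Their log2 fold changes of 0.41, -0.12 and -0.28 did not pass the test.

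In the sterol arm 4 of 11 genes fell, and the change was uneven along the route. Lss, the cyclase that closes the lanosterol ring, read 2.45 and 1.47 RPKM after 23.2 and 15.0, a log2 fold change of -3.14 ± 0.46 (edgeR adjusted p = 0.0149), the largest of the 30. Cyp51, the lanosterol demethylase (chr5:4081145-4104746), read 12.98 and 13.2 after 86.0 and 72.7, a change of -2.45 ± 0.33 (edgeR adjusted p = 0.0133). Sqle, the squalene epoxidase, read 7.60 and 6.75 after 43.9 and 23.3, a change of -2.07 ± 0.39 (edgeR adjusted p = 0.0262). Sc5d, a desaturase near the end of the route, read 6.35 and 7.13 after 20.9 and 18.2, a change of -1.38 ± 0.31 (edgeR adjusted p = 0.0410). Squalene synthase Fdft1, the methylsterol oxidase Msmo1 and the reductase Hsd17b7 were also below both activated libraries, with log2 fold changes of -1.14, -1.39 and -1.57, but missed the threshold (edgeR adjusted p = 0.0682, 0.0559 and 0.0758).

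Nsdhl, a dehydrogenase that acts at the same step as Msmo1 and Hsd17b7, read 13.4 and 12.3 after 16.8 and 11.2 RPKM, with overlapping groups. Ebp, the sterol isomerase, read 53.9 and 49.6 after 33.8 and 44.1, and the sterol reductase Tm7sf2 read 11.3 and 12.03 after 7.52 and 6.14. Their log2 fold changes were 0.55 and 0.93, and neither passed the test (edgeR adjusted p = 0.318 and 0.138). Dhcr7, the last reductase of the route, read 10.8 and 8.31 after 17.1 and 17.7, with a log2 fold change of -0.73 (edgeR adjusted p = 0.190).

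Among the regulators and carriers, Stard4 fell. It carries sterol between membranes and read 9.91 and 9.01 RPKM after 22.9 and 27.8, a log2 fold change of -1.28 ± 0.30 (edgeR adjusted p = 0.0458), a call that was lost with all 10 libraries in 1 fit (0.0659) and with the trend on exon length removed (0.0583). Insig1, itself a gene that SREBP is known to switch on, read 16.6 and 11.0 after 51.6 and 31.4, a change of -1.45 ± 0.37 that missed the threshold (edgeR adjusted p = 0.0573). It passed in DESeq2 (adjusted p = 0.00427), in edgeR without the filter (0.0095), with at least 10 reads in every library (0.0464) or with the length trend removed (0.0435), and in limma on log2(RPKM + 1) (0.0491). The transcription factor genes overlapped between the groups: Srebf2 read 32.8 and 14.3 after 61.0 and 29.8 (-0.81 ± 0.56), and Srebf1 read 19.6 and 10.8 after 24.8 and 18.5 (-0.38 ± 0.39). Scap and Insig2 had log2 fold changes of -0.20 ± 0.38 and 0.38 ± 0.54, and the sign of both turned when activated replicate 1 or mixed-medium replicate 2 was left out.

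In the fatty acid arm no gene passed the test in mixed medium, although both libraries of that group lay below both activated libraries for all 6. Fasn read 7.43 and 2.27 RPKM after 56.4 and 10.5, a log2 fold change of -2.64 ± 0.90 (edgeR adjusted p = 0.117). Acaca read 3.68 and 0.778 after 16.9 and 4.48, a change of -2.13 ± 0.96 (edgeR adjusted p = 0.217). Acly, which splits citrate, read 39.2 and 24.8 after 78.6 and 50.2. The share of exon reads on genes with at least 5000 bases of exon was 14.2% and 9.39% in mixed medium, after 16.2% and 12.1%. With a trend on exon length removed, 11 of the 30 genes fell in place of 9, and 6.25% of all genes in place of 4.22%.

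These counts rested on single libraries, as did those over all genes, of which 6.54% were called with every library in. The call count was 0 without mixed-medium replicate 1 (0.457% of all genes called) or without mixed-medium replicate 2 (0.192%), 1 without activated replicate 1 (0.498%), with Idi1 the gene that stayed, and 6 without activated replicate 2 (4.78%), while the log2 fold changes of the 9 genes kept their sign throughout.

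**Figure D2:**
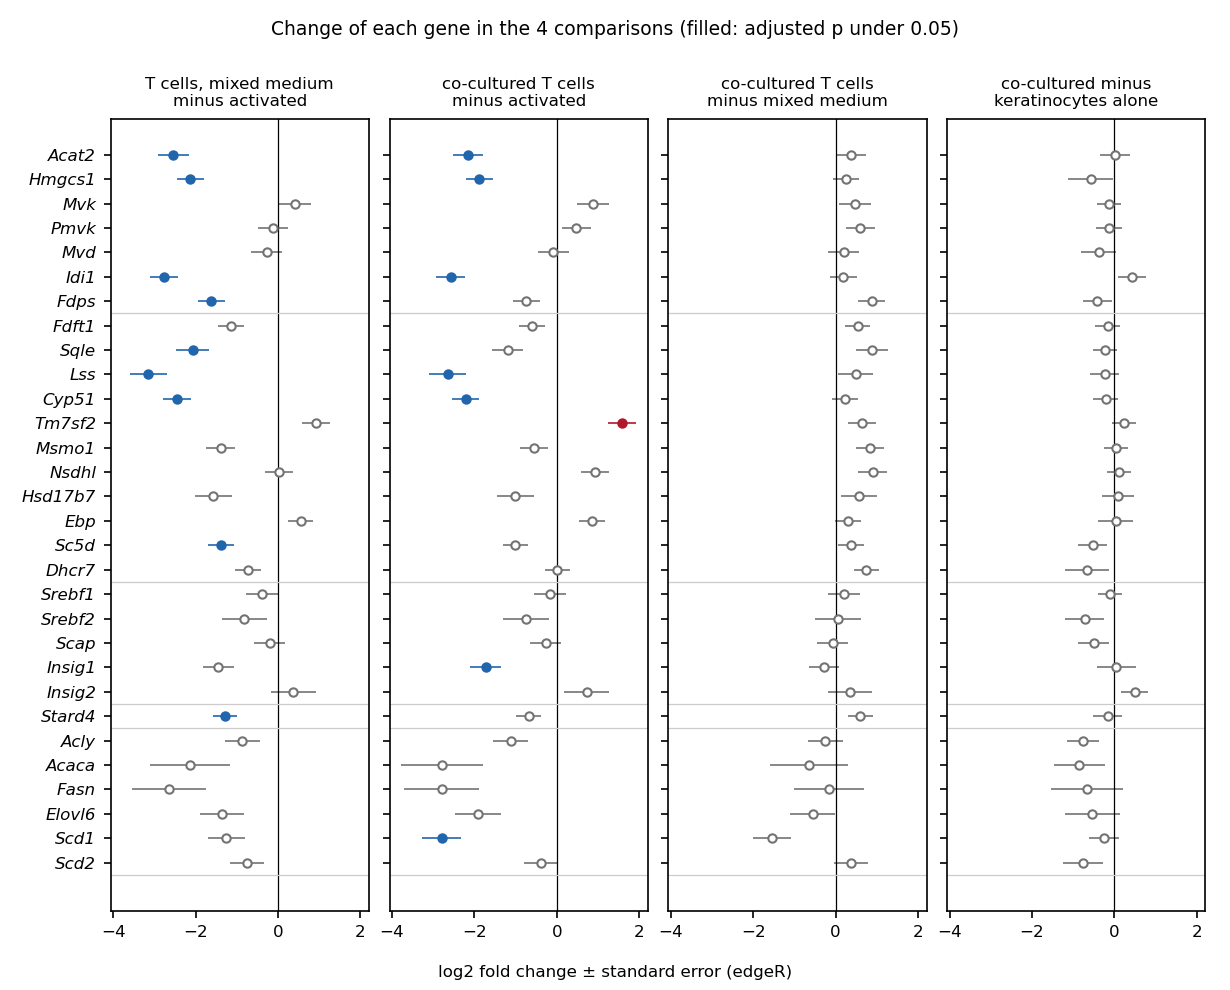
Log2 fold change of each of the 30 genes with its standard error (edgeR) in 4 comparisons, ordered by arm, with filled points where the adjusted p was under 0.05 (blue lower, red higher). The mevalonate and sterol genes spread from -3.14 to 0.93 in mixed medium against activated T cells and all 18 lie above 0 in co-cultured T cells against mixed medium.

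Co-cultured T cells were set against the same activated libraries. Of the 30 genes 7 fell and 1 rose, where 5.72% of all genes fell and 4.59% rose. The genes that fell were 3 of 7 in the mevalonate arm (Acat2, Hmgcs1, Idi1), Lss and Cyp51 in the sterol arm, Insig1 and Scd1. Marker sums lay apart between the groups as well, at 2847 and 2047 RPKM after 1458 and 1798 for T cells, 16.6 and 27.2 after 29.4 and 31.0 for B cells and 104 and 55.8 after 9.05 and 6.80 for keratinocytes, and their part in the result was not tested. The median log2 fold change of the 30 was -0.74, against -0.01 over all genes, and both libraries lay below both activated libraries for 19 of the 30, against 33.9% of all genes. The comparison shares its activated libraries with that of mixed medium, so their values are given side by side and the overlap of their calls is not read as a result.

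Idi1 read 31.6 and 26.5 RPKM in co-culture, a log2 fold change of -2.58 ± 0.34 (edgeR adjusted p = 0.00754). Cyp51 read 19.2 and 11.1, a change of -2.21 ± 0.33 (edgeR adjusted p = 0.00906). Lss read 3.56 and 1.81 (-2.65 ± 0.45, edgeR adjusted p = 0.0129), Acat2 read 9.67 and 5.44 (-2.16 ± 0.37, edgeR adjusted p = 0.0130) and Hmgcs1 read 21.2 and 12.4 (-1.88 ± 0.33, edgeR adjusted p = 0.0140). All 5 stood below both activated libraries in each co-cultured library. Insig1 read 13.3 and 8.73, a change of -1.72 ± 0.37 (edgeR adjusted p = 0.0271).

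Scd1, the stearoyl-CoA desaturase, was the 1 gene of the fatty acid arm that fell: it read 0.923 and 1.61 RPKM after 10.9 and 9.55, a log2 fold change of -2.79 ± 0.47 (edgeR adjusted p = 0.0129). Its paralogue Scd2 was far more abundant and gave a different picture, with 59.6 and 35.2 after 82.7 and 57.5 and overlapping groups (-0.38 ± 0.41). Fasn read 6.86 and 1.69 (-2.79 ± 0.91, edgeR adjusted p = 0.0887), Acaca 2.41 and 0.377, and the elongase Elovl6 1.65 and 0.758 after 5.73 and 4.51.

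Tm7sf2 was the gene that rose. It read 15.3 and 19.8 RPKM after 7.52 and 6.14, a log2 fold change of 1.58 ± 0.34 (edgeR adjusted p = 0.0279). Of its exon reads 38.9% mapped to 1 place, and its annotated transcripts share sequence with those of Vps51. On uniquely placed reads alone the change was 2.72 (edgeR adjusted p = 0.0167). Ebp read 60.8 and 62.0, Nsdhl 26.6 and 20.0, Mvk 19.8 and 13.4 and Pmvk 25.4 and 33.9. Their log2 fold changes of 0.85, 0.93, 0.88 and 0.48 did not pass the test (edgeR adjusted p = 0.120, 0.126, 0.176 and 0.431). The regulators Srebf2 (-0.75 ± 0.56), Srebf1 (-0.17 ± 0.39), Scap (-0.27 ± 0.38) and Insig2 (0.73 ± 0.55) overlapped between the groups, and the values of Srebf1 and Scap turned above 0 without activated replicate 1, and that of Srebf1 also without co-culture replicate 2. The count of calls fell from 8 to 2 without activated replicate 1 and to 3 without co-culture replicate 2, and the share called of all genes from 10.3% to 2.14% and 3.99%.

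Co-cultured T cells were then set against T cells in mixed medium, the comparison in which the labels differ by the keratinocytes alone. The sterol arm read 215 and 196 RPKM summed in co-culture and 148 and 143 in mixed medium, and the mevalonate arm 205 and 151 against 122 and 135. None of the 30 genes passed edgeR's test, where 0.261% of all genes did. At an unadjusted p under 0.05 there were 4 higher, against 2.70% of all genes, and 1 lower, against 0.750%. DESeq2 called 0 of the 30 as well.

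All 18 genes of both cholesterol arms had a log2 fold change above 0 in this comparison, from 0.18 to 0.90 with a median of 0.51, against a median of -0.01 over all genes. For 12 of the 18, and 13 of the 30, both co-cultured libraries lay above both libraries in mixed medium, against 14.2% of all genes. Fdps read 74.2 and 47.2 RPKM against 30.1 and 37.1 (0.87 ± 0.33, unadjusted p = 0.0282, edgeR adjusted p = 1), and on uniquely placed reads its change was 0.58. Nsdhl read 26.6 and 20.0 against 13.4 and 12.3 (0.90 ± 0.35, unadjusted p = 0.0321 in edgeR), Dhcr7 16.3 and 14.6 against 10.8 and 8.31 (0.75 ± 0.31, unadjusted p = 0.0425 in edgeR) and Msmo1 25.1 and 30.5 against 15.6 and 16.8 (0.84 ± 0.35, unadjusted p = 0.0431 in edgeR). The groups do not overlap for these 4 genes.

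Scd1 had the lowest p of the 30 and lay on the other side, at 0.923 and 1.61 RPKM in co-culture against 3.35 and 4.35 in mixed medium (-1.54 ± 0.45, unadjusted p = 0.00921, edgeR adjusted p = 0.750). The other members of the fatty acid arm overlapped between the groups. None of the regulators passed the test: Srebf2 (0.07 ± 0.55), Srebf1 (0.21 ± 0.39), Scap (-0.07 ± 0.38), Insig1 (-0.28 ± 0.37) and Insig2 (0.35 ± 0.54) were all within their standard errors of 0. The number at an unadjusted p under 0.05 came to 2 without either co-cultured library and to 1 without either library in mixed medium, and the signs of Srebf1, Srebf2, Scap and Insig2 depended on which library was left out.

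The co-cultured T-cell libraries held keratinocyte transcripts, and keratinocytes carry more of these genes. Against their mean level in co-cultured keratinocytes, 6 keratinocyte markers reached at most 1.89% and 1.38% in the 2 co-cultured T-cell libraries. At the shares of the 6 markers keratinocyte RNA would add 4.75 RPKM of Fdps, which is 17.5% of its difference between the groups. The same sum came to 7.32% of the difference of Nsdhl, 11.5% of that of Dhcr7 and 17.2% of that of Msmo1. For Idi1, Hmgcs1 and Lss the same sum came to 106%, 86.3% and 80.7% of their small differences. For Scd1, which was lower in co-culture, it would add 0.745 RPKM. Markers of other cells differed too: the 4 B-cell markers summed to 44.2 and 92.3 RPKM in mixed medium and to 16.6 and 27.2 in co-culture, without overlap, and 3 melanocyte markers, at 0 in the other T-cell libraries, to 3.78 in co-culture replicate 1. The part of keratinocyte RNA and of these other cells in the values was not tested.

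**Figure D3:**
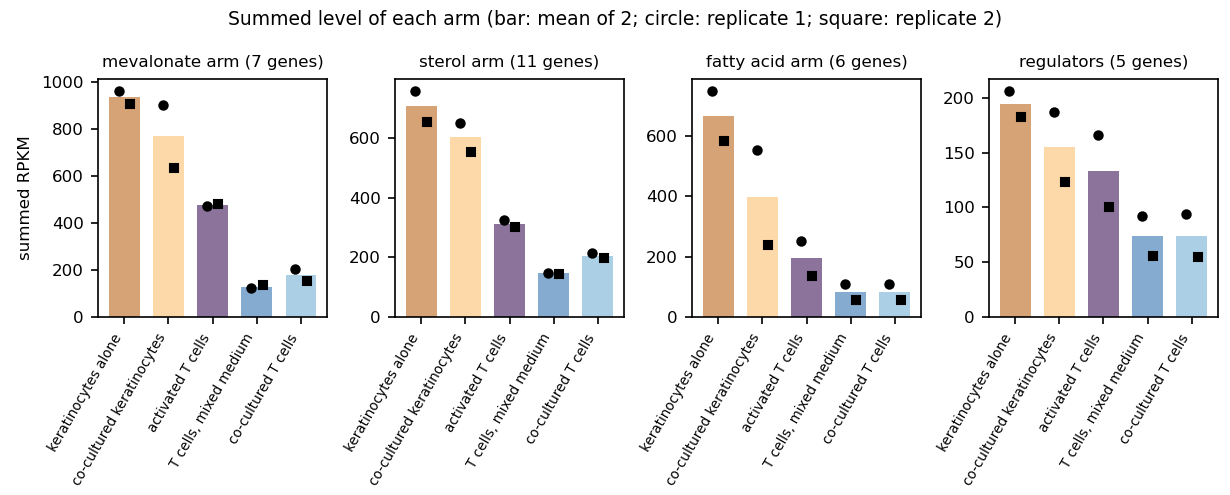
Summed RPKM of the mevalonate, sterol and fatty acid arms and of the regulators in each of the 5 groups, with bars for the mean of 2 libraries, circles for replicate 1 and squares for replicate 2; each panel has its own scale from 0. The mevalonate arm stood at 471 and 480.1 RPKM in activated T cells and at 122 to 205 in the 4 T-cell libraries of the further day.

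Keratinocytes held more of the pathway than T cells at any stage. Keratinocytes alone summed 2702 and 2338 RPKM over the 30 genes, against 1234 and 1046 in activated T cells. Of the 30, 17 were higher in keratinocytes alone than in activated T cells and 0 were lower, where 22.5% of the 13394 genes tested were higher and 35.5% differed in either direction. The median log2 fold change of the 30 was 1.37, against 0.14 over all genes. Scaling by library size in place of TMM moved that median over all genes to -0.02, and 13 of the 30 and 36.2% of all genes were then called.

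In the sterol arm 9 of 11 genes were higher in keratinocytes alone. Nsdhl read 47.9 and 43.1 RPKM in keratinocytes alone against 16.8 and 11.2 in activated T cells (1.86 ± 0.30, edgeR adjusted p = 0.00220). Hsd17b7 read 35.3 and 18.7 against 5.74 and 5.05 (2.47 ± 0.43, edgeR adjusted p = 0.00312), and Dhcr7 read 97.2 and 40.4 against 17.1 and 17.7 (2.12 ± 0.44, edgeR adjusted p = 0.00634). Fdft1, Sqle and Msmo1 were 1.65, 1.75 and 1.55 higher on the log2 scale. In the mevalonate arm 4 of 7 genes were higher, among them Fdps at 346 and 461 against 130.4 and 99.9 (1.97 ± 0.33, edgeR adjusted p = 0.00259) and Mvk at 31.0 and 36.9 against 12.8 and 7.76 (1.89 ± 0.33, edgeR adjusted p = 0.00295). Idi1 stood outside this pattern, at 173 and 118 against 164 and 229, with overlapping groups.

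Both desaturases were higher in keratinocytes. Scd2 read 476 and 358 RPKM against 82.7 and 57.5 (2.73 ± 0.48, edgeR adjusted p = 0.00324), and with Fdps it was the most abundant of the 30 in keratinocytes. Scd1 read 53.8 and 57.9 against 10.9 and 9.55 (2.60 ± 0.43, edgeR adjusted p = 0.00251). Scap (1.38 ± 0.38, edgeR adjusted p = 0.0208) and Insig2 (1.68 ± 0.54, edgeR adjusted p = 0.0384) were higher too, while Srebf2 (0.76 ± 0.57), Insig1 (0.30 ± 0.42) and Srebf1 (0.05 ± 0.34) did not pass the test. The value for Srebf1 turned below 0 in 6 of the other settings, and that of Insig1 without keratinocytes-alone replicate 1 or activated replicate 2. The count of 17 came to 9 without keratinocytes-alone replicate 1 or activated replicate 1 and to 11 without activated replicate 2, with 17.2%, 20.03% and 23.8% of all genes called. The call of Scap was lost with library-size scaling (edgeR adjusted p = 0.0526), with only the 4 libraries compared (0.0513) and with the length trend removed (0.0529), and that of Tm7sf2 on uniquely placed reads (edgeR adjusted p = 0.179). Medium, tissue and T-cell activation differ together between these groups and cannot be told apart.

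In keratinocytes, co-culture gave no call in this list. Co-cultured keratinocytes summed 2311 and 1562 RPKM over the 30 genes, against 2702 and 2338 alone. None of the 30 passed edgeR's test, nor did any of the 12515 genes tested (0%), and 0 of the 30 had an unadjusted p under 0.05, against 4.12% of all genes lower and 3.08% higher. DESeq2 called 0 of the 30, with 88 genes higher and 98 lower over all. The median log2 fold change of the 30 was -0.22, against 0.02 over all genes. Both co-cultured libraries lay below both others for 8 of the 30 genes, against 24.3% of all genes, and above both for 1, Insig2, against 19.8%.

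The fatty acid arm read 554 and 239.7 RPKM after co-culture against 751 and 584 alone, and all 6 of its genes had values below 0. Acly read 88.6 and 46.9 against 128 and 110.0 (-0.76 ± 0.39, edgeR adjusted p = 0.658), and Scd2 read 328 and 147 against 476 and 358 (-0.76 ± 0.49, edgeR adjusted p = 0.670). Neither group pair overlaps, but for both genes replicate 1 after co-culture lay nearer to the lower library alone than to its own replicate 2. Srebf2 read 57.3 and 23.3 against 71.9 and 65.0 (-0.72 ± 0.47, edgeR adjusted p = 0.670). Insig2, which keeps SCAP in the endoplasmic reticulum, read 18.6 and 25.9 against 17.6 and 15.9 (0.50 ± 0.33, edgeR adjusted p = 0.672). Sc5d read 36.2 and 25.9 against 58.1 and 36.2 (-0.53 ± 0.36, edgeR adjusted p = 0.672).

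Scap (-0.50 ± 0.37), Srebf1 (-0.11 ± 0.28) and Insig1 (0.04 ± 0.47) were the other regulators, and the signs of Srebf1 and Insig1 depended on the setting. Over the 18 genes of the cholesterol arms the median log2 fold change was -0.15, and none passed the test. Msmo1 read 126 and 118 against 131 and 117, and Idi1 201 and 173 against 173 and 118.

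Co-cultured replicate 2 decided how far the keratinocyte groups lay apart. Without co-cultured replicate 1, 2 of the 30 genes were called, both lower, where 8.06% of all genes tested then fell, and without co-cultured replicate 2 none of the 30 was. The share of exon reads on genes with at least 5000 bases of exon was 16.7% and 10.1% in co-cultured keratinocytes and 23.3% and 18.0% alone. In replicate 2 after co-culture Fasn read 9.25 RPKM, against 64.0 in replicate 1 and 74.2 and 44.8 alone. The T-cell markers given above were also highest there, at 870 RPKM summed. Their part in these values was not tested.

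The effect of co-culture was compared between keratinocytes and T cells as an interaction over 8 libraries, with co-culture set against culture alone for keratinocytes and against mixed medium for T cells. By the methods, medium may have changed along with the partner cell in the keratinocytes but not in the T cells. Its part was not tested. None of the 30 genes passed, where 0.576% of all genes did, and DESeq2 called 0 of the 30. At an unadjusted p under 0.05, the effect was lower in keratinocytes than in T cells for 2 of the 30, against 4.59% of all genes, and higher for 0, against 2.47%. These were Sqle (-1.12 ± 0.39, unadjusted p = 0.0213, edgeR adjusted p = 0.534) and Fdps (-1.30 ± 0.47, unadjusted p = 0.0259, edgeR adjusted p = 0.580). On uniquely placed reads the value for Fdps was -0.96 (unadjusted p = 0.150 in edgeR) and no longer passed that threshold. Over the 18 genes of the cholesterol arms the median difference was -0.72, with 17 of 18 below 0, against a median of 0.02 over all genes. Scd1 had a difference of 1.28 ± 0.58 in the other direction. The regulators gave differences of -0.81 for Srebf2, -0.45 for Scap, -0.33 for Srebf1, 0.30 for Insig1 and 0.14 for Insig2, each smaller than its standard error. The number at an unadjusted p under 0.05 came to 0 without co-cultured T-cell replicate 1 or mixed-medium replicate 1 and to 5 without co-cultured keratinocyte replicate 1.

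Other lipid genes were counted from 4 lists. In T cells in mixed medium, of 16 tested SREBP targets and partners outside the 30, 2 fell and 1 rose, with a median log2 fold change of -1.05, where over all genes 4.22% fell and 2.32% rose. Tmem97, a sterol-regulated membrane protein, read 12.9 and 13.9 RPKM after 127 and 107 (-2.97 ± 0.34, edgeR adjusted p = 0.0113), and the acyl-CoA synthetase Acsl3 also fell (-2.19 ± 0.46, edgeR adjusted p = 0.0342). Acss2, which makes acetyl-CoA from acetate, rose from 2.74 and 3.53 to 10.3 and 9.05 (1.76 ± 0.36, edgeR adjusted p = 0.0313).

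The list of sterol efflux, esterification and LXR genes had a median of 1.28 over 10 genes in mixed medium, and 2 rose. Over all genes 2.32% rose and 4.22% fell in this comparison. Soat2, which esterifies cholesterol, read 6.73 and 6.08 RPKM after 0.645 and 0.220 (4.03 ± 0.68, edgeR adjusted p = 0.0205). Npc2, the lysosomal sterol binder, read 315 and 329 after 90.0 and 109 (1.84 ± 0.30, edgeR adjusted p = 0.0191). Of 13 fatty acid oxidation genes 3 rose and 0 fell, with a median of 0.70: the carnitine transferase Cpt1a (2.24 ± 0.54, edgeR adjusted p = 0.0499), the dehydrogenase Acadl (1.41 ± 0.29, edgeR adjusted p = 0.0313) and the thiolase Acaa2 (1.29 ± 0.30, edgeR adjusted p = 0.0451). The calls of Cpt1a and Acaa2 were lost with library-size scaling (edgeR adjusted p = 0.0767 and 0.0597), and that of Cpt1a also in limma on log2(RPKM + 1) and log2(RPKM + 0.1) (adjusted p = 0.0827 and 0.0808). Of 11 genes of the isoprenoid branches 0 passed, with a median of -0.61.

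In co-cultured T cells against the same activated libraries the 4 medians were -0.41, 1.02, 0.96 and -0.53 in the order targets and partners, efflux and esterification, oxidation, isoprenoid branches. Of the targets and partners 2 fell and 1 rose, of the efflux list 3 rose, of the oxidation list 3 rose, and of the isoprenoid list 1 fell, where over all genes 5.72% fell and 4.59% rose. Tmem97 fell (-3.22 ± 0.35, edgeR adjusted p = 0.00525), and Pdss1, which starts the ubiquinone side chain, fell (-2.11 ± 0.55, edgeR adjusted p = 0.0485; 0.0686 with all 10 libraries in 1 fit). Soat2 (3.54 ± 0.67, edgeR adjusted p = 0.0177), Npc2 (1.99 ± 0.31, edgeR adjusted p = 0.00956), Acss2 (2.05 ± 0.36, edgeR adjusted p = 0.0149), Acadl (1.41 ± 0.29, edgeR adjusted p = 0.0229) and Acaa2 (1.64 ± 0.30, edgeR adjusted p = 0.0170) rose. With single libraries left out, the calls of Tmem97 and Soat2 against activated T cells held throughout in co-culture, and each of the other calls named from these lists was lost at least once, in mixed medium those of Tmem97 (highest edgeR adjusted p = 0.0673) and Soat2 (0.0759) included.

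**Figure D4:**
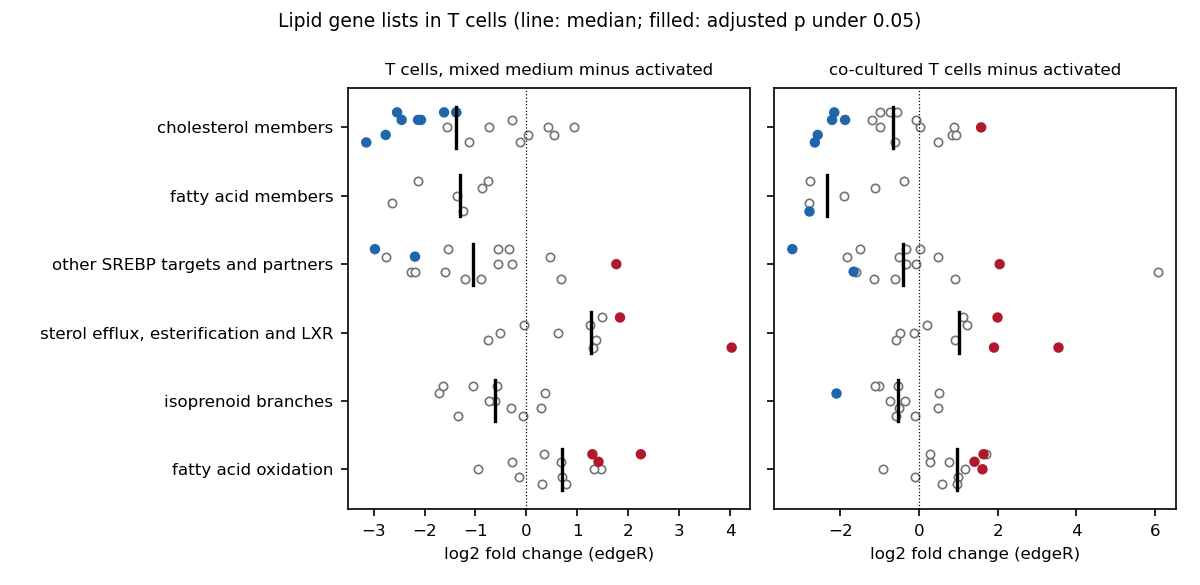
Log2 fold changes (edgeR) of the cholesterol members, the fatty acid members and 4 lists of other lipid genes in T cells in mixed medium (left) and co-cultured T cells (right), each against the same activated T cells; each point is a gene, lines are medians and filled points have an adjusted p under 0.05. In mixed medium the cholesterol, fatty acid, SREBP target and isoprenoid lists have medians from -1.38 to -0.61, and the efflux and oxidation lists have medians of 1.28 and 0.70.

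Intron reads, which the fits did not use, were counted for the same genes. Srebf2 had 1092 and 632 intron reads in activated T cells when scaled to 1000000 intron reads, 299.5 and 298.6 in mixed medium and 363 and 242 in co-culture. Scaled to 1000000 exon reads instead, the values were 26.9 and 24.2, then 12.5 and 13.3, then 12.6 and 10.1, so under either scaling both activated libraries lay above the 4 later ones. For the 18 genes of the cholesterol arms the order depended on the scaling. To intron reads they had 517 and 361 in activated T cells, 306 and 293 in mixed medium and 271 and 240.5 in co-culture, without overlap. To exon reads they had 12.75 and 13.8, then 12.74 and 13.02, then 9.43 and 10.03, so that the libraries in mixed medium overlapped with the activated ones. The 6 genes of the fatty acid arm had 275 and 309.0 to intron reads in activated T cells, 167 and 171 in mixed medium and 189 and 309.5 in co-culture, and 1 co-cultured library lay above both activated ones. To exon reads they had 6.78 and 11.9, then 6.94 and 7.60, then 6.57 and 12.9, and all 3 groups overlapped. Hmgcs1, whose exon reads fell, overlapped as well, with 81.5 and 81.2 to intron reads, then 51.1 and 148, then 55.4 and 87.6. Lss had 86.6 and 57.5, then 61.3 and 11.6, then 26.7 and 11.2, and overlapped in mixed medium only. Fdps did not overlap, with 71.3 and 67.4, then 27.2 and 0, then 6.16 and 0, from at most 34 reads per T-cell library. To exon reads Fdps had 1.76 and 2.58, then 1.13 and 0, then 0.214 and 0. In keratinocytes the 18 genes had 3194 and 1810 to intron reads alone and 1716 and 673 after co-culture, and 82.6 and 51.3 against 32.2 and 21.2 to exon reads. The counts behind the 18 genes are small (129 to 1488 reads) and reads of overlapping genes were not set apart. With 2 libraries against 2, an exact two-sided permutation test cannot go below p = 0.333, so these are given as values.

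Some members share reads with other loci. The share of exon reads that mapped to 1 place was 13.1% for Fdps, 29.0% for Mvd, 38.9% for Tm7sf2, 58.9% for Acat2, 89.4% for Scap and at least 96.3% for the other 25. Annotated transcripts of Acat2 share stretches with those of Acat3, and those of Fdps with several predicted genes. On uniquely placed reads Acat2 kept its fall in mixed medium (-2.74, adjusted p = 0.0197 in edgeR) and in co-culture (-2.26, adjusted p = 0.0203 in edgeR).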

How the data were processed

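Total exon reads, uniquely mapped exon reads, intron reads and RPKM values came from 1 gene table per library, 10 in all, as deposited. Per the labels and the study's methods, the authors sequenced 59-base single-end reads of poly(A) RNA on a HiSeq 2500, mapped them to GRCm38 in CLC Genomics Workbench with default settings, and deposited whole-number read counts and RPKM; the annotation release, the treatment of strand and the counting of multiply mapped reads are not given in the sources used here. The counts were taken as deposited. Genes were filtered with filterByExpr, scaled with TMM and tested with edgeR 4.0.16 (quasi-likelihood, R 4.3.3), with Benjamini-Hochberg adjustment over all genes tested and a threshold of 0.05. The keratinocyte comparison used the 4 keratinocyte libraries, the T-cell comparisons the 6 T-cell libraries, keratinocytes against activated T cells all 10, and the interaction 8. RPKM served for levels and, in alternatives, for limma on log2(RPKM + 1) and log2(RPKM + 0.1). DESeq2, other filters and scalings, unique reads and leaving out each library were further alternatives, and removal of a trend with exon length was added after seeing the data. Procedures were tested on simulated counts. The 30 members and the gene lists were chosen with earlier results of these data known. Named genes were the up to 10 called members with the lowest p (5 where fewer than 5 were called), the 5 regulators, and called genes of the other lists; other members are given to describe each arm, and Lss, Insig1 and Sc5d were chosen for their promoters after their values were seen. At the lowest depth a count of 3 reads on a kilobase of exon is 0.212 RPKM, and the number of libraries limits the precision more than depth does. Replicate numbers of T cells in mixed medium and co-culture follow the order of the records and are names only.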

Additional observations from a re-analysis of the deposited data

How the results depend on the processing

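With the same 30 genes tested throughout, the number called in T cells in mixed medium against activated T cells was 9, and it was 14 with DESeq2 and 15 without a filter on low counts, while the share called of all genes went from 6.54% to 16.4% and 12.7%. In co-cultured T cells against activated T cells it was 8, and it was 14 with DESeq2 and 13 without the filter, with 10.3%, 19.8% and 15.9% of all genes called. With library-size scaling the median of all genes moved from -0.01 to -0.13 in mixed medium, from -0.01 to -0.17 in co-culture and from 0.14 to -0.02 between keratinocytes and activated T cells. Leaving out 1 library at a time gave 0 to 2 calls in co-cultured keratinocytes (0% to 8.88% of all genes called), 0 to 11 in mixed medium (0.192% to 8.60%), 2 to 10 in co-cultured T cells (2.14% to 8.76%) and 9 to 17 between keratinocytes alone and activated T cells (17.2% to 35.4%), and 0 in both remaining comparisons. A group left with 1 library was assumed to vary like the others. No called gene changed sign. The log2 fold change of Srebf1 between keratinocytes and activated T cells turned to -0.1189 with library-size scaling, -0.04893 on unique reads, -0.09285 and -0.09653 with limma, -0.02065 with only the 4 libraries compared and -0.3496 with the trend on exon length removed. In co-cultured keratinocytes Insig1 turned to -0.01966 with library-size scaling, -0.001721 with all 10 libraries in 1 fit and -0.07489 with the length trend removed, and Srebf1 to 0.0617 with the length trend removed and 0.07109 with the replicate block as well. In co-cultured T cells against mixed medium Srebf2 turned to -0.04087 and -0.04652 with limma. The causes were not tested.

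Regulators whose log2 fold change crossed 0 with 1 library left out were these. In co-cultured keratinocytes, Insig1 ranged from -0.4152 to 0.6862 and Srebf1 from -0.2751 to 0.06085. In mixed medium against activated T cells, Scap ranged from -0.5357 to 0.2653 and Insig2 from -0.1237 to 0.9619. In co-culture against activated T cells, Srebf1 ranged from -0.5826 to 0.1465 and Scap from -0.6115 to 0.1881. In co-culture against mixed medium, Scap ranged from -0.3262 to 0.2074, Insig2 from -0.2628 to 0.8494, Srebf1 from -0.2043 to 0.5835 and Srebf2 from -0.7818 to 0.6561. Between keratinocytes alone and activated T cells, Insig1 ranged from -0.4469 to 0.6506 and Srebf1 from -0.2139 to 0.1344. In the interaction, Insig1 ranged from -0.1452 to 0.947, Insig2 from -0.3575 to 0.7518, Srebf1 from -0.7152 to 0.08366 and Srebf2 from -1.455 to 0.03657. Srebf2 also moved widely where it stayed below 0. It ranged from -1.401 to -0.2572 in mixed medium and from -1.595 to -0.1969 in co-culture, both against activated T cells. In co-cultured keratinocytes it ranged from -1.427 to -0.2719.

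The replicate numbers of the keratinocyte groups come from the labels, which do not say that a number marks a shared batch, and only 2 pairs exist, so a pairing is not established (the deviations of the 2 libraries numbered 1 correlated at r = 0.634 over 12515 genes; genes are no replicates of each other). With the number as a replicate block 0 of the 30 genes were called and 4 had an unadjusted p under 0.05, with 2 genes called over all, both higher; block and length trend together gave 0 of the 30, with 213 genes higher and 314 lower over all. Each member had reads in every library.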
